A study of Mus musculus with 8 samples.

Results

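Libraries labelled as T follicular helper (TFH) cells lacking the complement receptor C5aR1 were compared with libraries labelled as naive CD4 T cells lacking the same receptor, across all 14042 genes measured, in 4 of the 8 mouse RNA sequencing libraries of the study. The libraries were chosen by their labels alone. The RNA of Cxcr5 and Cd44 went against the labelled sort, and that of Pdcd1 overlapped between the groups, as given with the sort markers. Both groups are labelled C5aR1-/- (KO below), a genotype that was not checked here. The TFH-labelled KO libraries (2) were made from donor CD4 cells sorted as CXCR5+ and PD1 high from the spleens of (bxd)F1 mice on day 7 after transfer. Each recipient had been given 10000000 spleen cells, depleted of CD8 cells, from C5aR1-deficient donors. The naive-labelled KO libraries (2) were made from CD4 T cells sorted by surface markers of naive cells, among them low CD44, with no transfer given in their labels. Wild-type (WT) libraries of both kinds (2 each) entered the model of the spread and a test of whether the KO difference departed from the WT difference. Transfer, time in the host, activation and the sort therefore change together between the groups and cannot be told apart. The labels give neither the age nor the strain of the donors, and do not say that a group's libraries stem from different animals. The p-values below therefore reflect the spread among these samples only. That spread may be technical, save that the naive-labelled KO libraries differ from each other in sex-linked genes, as given below.

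TFH cells are CD4 T cells that move into B cell follicles and provide the signals for germinal centre reactions. The transcription factor BCL6 directs their program, the chemokine receptor CXCR5 guides them to the follicle, and they deliver IL-21, IL-4 and CD40 ligand to B cells. Transfer of parental lymphocytes into an F1 host exposes donor T cells to foreign histocompatibility antigens, and donor CD4 cells then become activated and help host B cells. Engagement of the T cell receptor also sets off immediate early genes, whose products include AP-1 factors, inhibitors of NF-kB and phosphatases that switch signalling off again.

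Levels are the deposited log2 expression values, which were normalised across libraries and for which no depth or scaling by gene length is known, so levels are compared between libraries and never between genes. A difference is the TFH-labelled mean minus the naive-labelled mean on that log2 scale, with its standard error (SE, n = 2 libraries a group), so a difference of 1 is a doubling. A gene was called, and is said to have risen or fallen, at a Benjamini-Hochberg adjusted p below 0.05 in the limma model over all genes. Values in pairs are those of replicate 1 and then replicate 2. In all, 2744 genes were called (19.5%), of which 1280 rose (9.12%) and 1464 fell (10.4%). The shares risen and fallen are the background for every list count below. Large rises outnumbered large falls, with 127 called genes up by at least a log2 of 2 against 26 down. At a log2 of at least 3 the counts were 52 and 7. The median difference over all genes was -0.011. Across genes, which are not replicates, Pearson's r was 0.983 between the TFH-labelled and 0.989 between the naive-labelled libraries, and 0.958 to 0.964 between the groups.

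The 4 libraries were not alike apart from their labels. The median of 28 B cell genes stood at -1.69 relative to its mean over all 8 libraries in TFH KO replicate 1, but at 2.01 in TFH KO replicate 2, with 0.63 and 0.04 in the naive KO libraries. Cd79b, a chain of the B cell receptor complex, was 7.99 and 11.66 in the TFH-labelled libraries and 11.04 and 10.32 in the naive-labelled ones. No B cell gene was called, and the median difference of the list was -0.20. That median was 1.46 without TFH KO replicate 1 and -2.11 without TFH KO replicate 2. Naive KO replicate 1 differed from the other 3 libraries in sex-linked genes: Xist, which coats the inactive X chromosome, was 14.61 there against 4.62, 5.41 and 4.44, and the Y-linked helicase gene Ddx3y was 5.67 against 12.54, 12.84 and 13.16. The number of called genes was 1861 without naive KO replicate 1, 1771 without naive KO replicate 2, 2219 without TFH KO replicate 1 and 1399 without TFH KO replicate 2. Without replicate 2 of both TFH groups it was 1225.

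**Figure D1:**
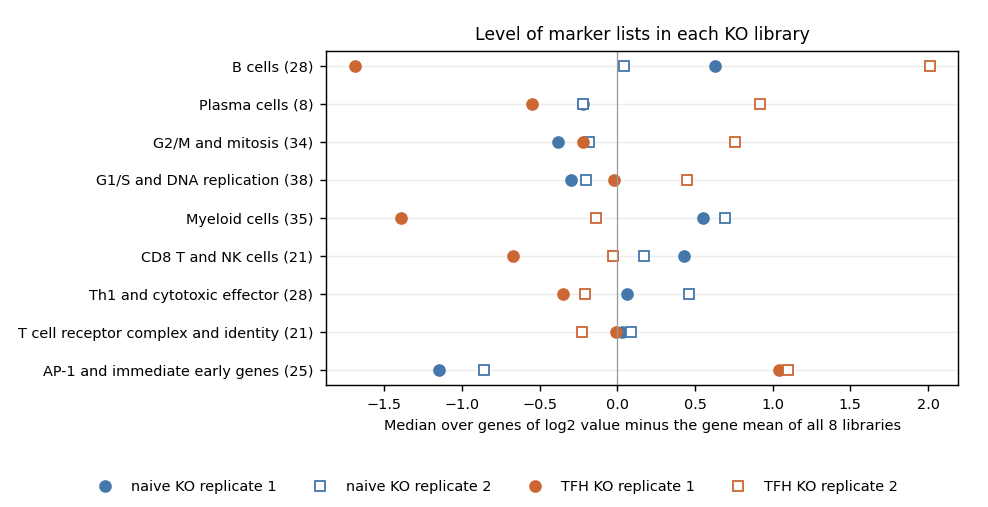
Level of 9 gene lists in each KO library: the x axis gives the median over the list's genes of the log2 value minus that gene's mean over all 8 libraries, and numbers in brackets count the genes. TFH KO replicate 2 stands at 2.01 for B cell genes and TFH KO replicate 1 at -1.69, while both TFH-labelled libraries lie above both naive-labelled ones for AP-1 and immediate early genes.

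The sort markers were examined first, since they check the labels. Cxcr5, which encodes the follicle homing receptor used in the sort, was 10.85 and 11.23 in the TFH-labelled libraries and 11.86 and 12.30 in the naive-labelled ones. The groups did not overlap, and the TFH-labelled libraries were the lower ones, but the difference of -1.04 ± 0.34 was not called (adjusted p = 0.098); a fit of the compared groups alone called it (adjusted p = 0.00936), as did one without the robust option (adjusted p = 0.031). Pdcd1, the gene of PD1, was 11.88 and 12.21 against 10.96 and 11.97, and the groups overlapped. Its difference of 0.58 ± 0.51 was not called (adjusted p = 0.525). Cd44, the adhesion receptor that the naive sort required to be low, was 12.07 and 12.05 against 12.69 and 12.70, and it fell in the TFH-labelled libraries by 0.63 ± 0.14 (adjusted p = 0.0114). This call ended without naive KO replicate 1 (-0.63, adjusted p = 0.0554), naive KO replicate 2 (-0.62, adjusted p = 0.0615) or TFH KO replicate 2 (-0.62, adjusted p = 0.0703). Cd4 differed by 0.07 ± 0.10 (adjusted p = 0.668), and Foxp3, the factor that defines regulatory T cells, stood at 12.36 and 12.43 against 12.46 and 12.63. The RNA of Cxcr5 and Cd44 therefore lay opposite to the sort described in the labels. That of Pdcd1 did not separate the groups, and the groups are called by their labels. The receptor genes C3ar1, C5ar1 and C5ar2 were not analysed here, and the genotype was not checked.

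After H2-Ea-ps, which is described further on, the largest rises were those of Maff and Tnfaip3. Tnfaip3, which encodes the NF-kB inhibitor A20, stood at 17.76 and 17.84 in the TFH-labelled libraries and at 12.33 and 12.54 in the naive-labelled ones, a rise of 5.37 ± 0.11 or 41.4-fold (adjusted p = 1.76e-10). Maff, a small basic leucine zipper factor, was 12.55 and 12.43 against 6.70 and 6.65, a rise of 5.81 ± 0.15. The zinc finger factor gene Klf4 was 12.27 and 12.49 against 7.45 and 7.62, a rise of 4.85 ± 0.17. For these genes the gap between the groups was far wider than that within either group. Irs2, an adaptor of insulin and IL-4 receptor signalling, rose by 4.14 ± 0.19 from 8.66 and 8.45 to 12.56 and 12.84, and Sik1, a salt-inducible kinase, by 3.94 ± 0.15 from 10.56 and 10.11 to 14.23 and 14.33.

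Other large rises differed more between the TFH-labelled libraries. The AP-1 gene Fosb was 11.84 and 12.93 against 7.73 and 7.45 (4.80 ± 0.41). The nuclear receptor gene Nr4a2 was 10.28 and 10.89 against 6.66 and 6.33 (4.09 ± 0.24). Trp53inp2, an autophagy gene, was 10.41 and 11.44 against 7.11 and 6.87 (3.93 ± 0.41). Lgals7, which encodes the lectin galectin-7, was 9.80 and 10.92 against 5.40 and 5.34 (4.99 ± 0.36). Gcg, the gene of the hormone glucagon, was 8.16 and 9.86 against 3.33 and 4.29, values near the bottom of the scale in the naive-labelled libraries, and its difference was 5.20 ± 0.59. In all 5 genes replicate 2 was the higher TFH-labelled library, and the groups did not overlap.

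The largest difference was that of H2-Ea-ps, on chromosome 17 at 34341952 to 34344645 (GRCm38), a copy of the class II gene for the I-E alpha chain that mice of the H-2b haplotype do not transcribe. It was 8.21 and 12.44 in the TFH-labelled libraries. In the naive-labelled libraries it was 1.16, the lowest value deposited, and 1.79, so the size of the difference (8.85 ± 1.74, adjusted p = 0.0331) rests on values at or near that floor. Its higher library is TFH KO replicate 2, in which the B cell list was also high; H2-Aa, a class II gene of B cells and other antigen-presenting cells, was 9.64 and 13.90 in the TFH-labelled libraries. The TFH-labelled WT libraries also held H2-Ea-ps, at 8.22 and 11.03, and the naive-labelled WT libraries had 1.16 and 1.79. The part of host cells in the sorted populations was not tested. The call ended without naive KO replicate 1 (8.53, adjusted p = 0.146), without naive KO replicate 2 (9.17, adjusted p = 0.137) and with the compared groups alone (adjusted p = 0.128).

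Among the 12 largest falls, Irgc1, an immunity-related GTPase gene, was 6.33 and 6.19 in the TFH-labelled libraries and 10.49 and 10.18 in the naive-labelled ones, a fall by 4.08 ± 0.29. Rab6b, a gene of vesicle traffic, was 8.74 and 8.81 against 11.79 and 11.57 (-2.91 ± 0.12). Cxcr6, the receptor of CXCL16, was 10.12 and 9.70 against 12.41 and 12.76 (-2.68 ± 0.24). Clec2d, the ligand of the NK receptor NKR-P1B, was 12.28 and 12.27 against 14.00 and 14.32 (-1.88 ± 0.12). Ifit1bl1, an interferon-stimulated gene, was 10.08 and 9.51 against 12.26 and 12.65 (-2.66 ± 0.23). The zinc finger gene Zfp87 was 8.63 and 8.53 against 10.63 and 10.48 (-1.97 ± 0.13). No left-out library of the comparison ended any of these 6 calls.

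Several of the other large falls are genes known from macrophages and related cells. Gpr34, a lysophospholipid receptor gene, was 7.87 and 7.33 against 9.71 and 9.70 (-2.11 ± 0.21). P2ry13, a nucleotide receptor gene, was 5.39 and 6.44 against 8.42 and 8.52 (-2.56 ± 0.62). Siglece, an inhibitory sialic acid receptor gene, was 6.23 and 6.92 against 8.47 and 8.47 (-1.89 ± 0.48). Igf1, a growth factor gene, was 6.69 and 7.11 against 8.81 and 8.81 (-1.91 ± 0.41). Fgl2, a prothrombinase gene also made by regulatory T cells, was 8.33 and 8.43 against 9.87 and 10.63 (-1.87 ± 0.27). The calls of P2ry13, Siglece and Igf1 ended on leaving out any of the 4 libraries, at adjusted p-values of 0.0727 to 0.166, 0.0836 to 0.162 and 0.0775 to 0.104, while leaving out any of them kept those of Gpr34 and Fgl2. That of Fgl2 ended when both TFH groups lacked their replicate 2 (-1.92, adjusted p = 0.0606), and that of Siglece with library quality weights (adjusted p = 0.0519). Of the 35 genes of the myeloid list 3 fell and 1 rose, shares no larger than the 10.4% and 9.12% of all genes. The median difference of the list was -1.21, which became -0.40 without TFH KO replicate 1 and -1.89 without TFH KO replicate 2. The macrophage gene C1qa, a complement component, was 8.16 and 9.55 against 11.33 and 11.66 and was not called, except without the robust option (-2.64, adjusted p = 0.0451). The list's median deviations were 0.55 and 0.69 in the naive-labelled libraries and -1.39 and -0.14 in the TFH-labelled ones, its fallen members numbered 1 or 2 with a library left out, and the part of these cells in the falls was not tested. In bulk libraries such as these, fewer cells of a type and less RNA per cell cannot be told apart.

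**Figure D2:**
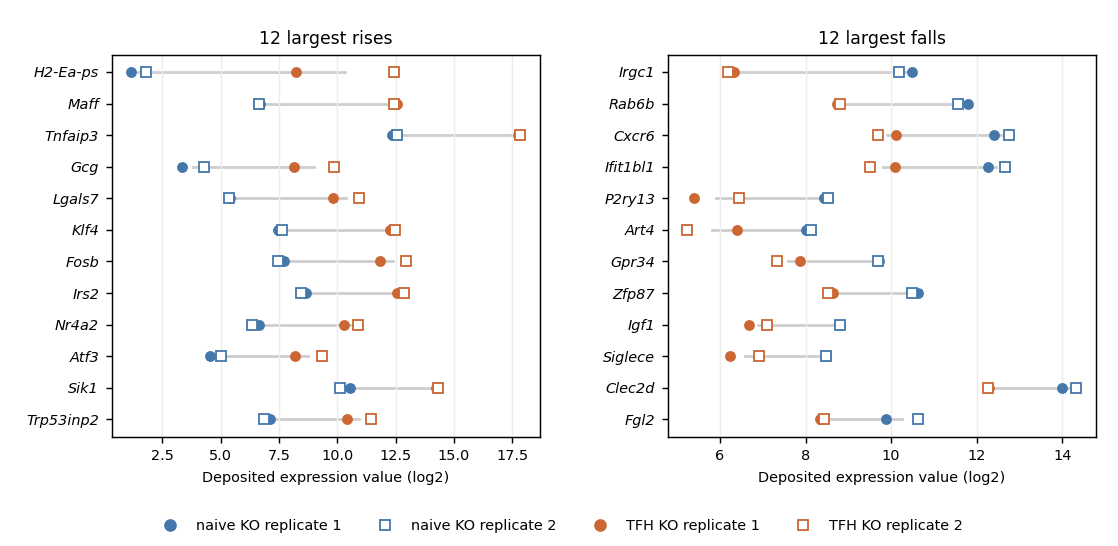
Deposited log2 value of the 12 largest called rises and the 12 largest called falls in each of the 4 KO libraries, 2 per group, with the grey bar joining the group means. No gene shown overlaps between groups; H2-Ea-ps and Gcg differ most between the TFH-labelled replicates among the rises.

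Promoter letters of a selection of risen genes are shown. The capitals mark AP-1, CRE and TATA letters only, and other letters searched for stay in lower case. Each stretch below is the 120 bases before the start of the gene in RefSeq's promoter table (GRCm38.p6), written along the gene's own strand. Maff, Klf4 and Tnfaip3, among the largest rises, hold no AP-1, CRE or TATA letters in this stretch, though Tnfaip3 has AP-1 and TATA letters farther upstream in the table's window, while Trp53inp2, Klf9 and Gcg hold 1 of the 3 kinds. Klf9 is not among the 12 largest rises. Atf3, Fosb, Irs2, Lgals7 and Nr4a2 are among them but are not shown, and they hold none of these letters in this stretch.
Maff, chr15:79346501-79346620, plus strand: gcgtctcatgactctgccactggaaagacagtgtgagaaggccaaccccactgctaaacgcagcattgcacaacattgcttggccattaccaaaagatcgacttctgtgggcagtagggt
Klf4, chr4:55532476-55532595, minus strand: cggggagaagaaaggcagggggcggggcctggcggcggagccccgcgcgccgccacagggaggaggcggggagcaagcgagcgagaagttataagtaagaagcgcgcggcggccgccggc
Tnfaip3, chr10:19015411-19015530, minus strand: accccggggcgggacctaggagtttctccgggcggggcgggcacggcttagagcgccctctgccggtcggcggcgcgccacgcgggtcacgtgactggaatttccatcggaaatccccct
Trp53inp2, chr2:155381736-155381855, plus strand: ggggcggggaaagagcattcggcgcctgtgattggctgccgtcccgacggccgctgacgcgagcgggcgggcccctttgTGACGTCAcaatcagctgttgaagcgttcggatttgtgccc
Klf9, chr19:23141106-23141225, plus strand: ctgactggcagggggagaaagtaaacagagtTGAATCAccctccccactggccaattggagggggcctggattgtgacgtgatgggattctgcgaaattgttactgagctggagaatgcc
Gcg, chr2:62483654-62483773, minus strand: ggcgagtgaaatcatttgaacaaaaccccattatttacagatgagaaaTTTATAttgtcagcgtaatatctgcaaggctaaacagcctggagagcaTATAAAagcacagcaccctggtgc

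In Trp53inp2 the capitals are the CRE letters TGACGTCA, in Klf9 the AP-1 letters TGANTCA, and in Gcg the TATA letters TATAAA on either strand. Over the whole table window (250 bases before to 50 after the start, both strands), which 10875 measured genes have, TATA letters were in 12.8% of promoters of genes called higher by at least a log2 of 1. The share was 8.57% for genes called lower by as much and 7.66% for all measured genes. The loose NF-kB letters, GGG and CC with any 5 bases between them, were in 69.0%, 57.1% and 65.5% of the same sets, the CRE letters in 3.83%, 3.27% and 3.10%, and the AP-1 letters in 6.39%, 7.76% and 5.37%. Of 24 immediate early promoters, 6 held TATA letters, 2 CRE letters and none AP-1 letters. Transcript ends were described in the same way: the AU-rich letters TATTTAT were in the 3' end of 38.4% of genes called higher by at least a log2 of 2, of 34.1% called higher by at least 1, of 27.9% called lower by at least 1 and of 29.1% of all measured genes. Per kilobase they occurred 0.485, 0.384, 0.257 and 0.273 times. Among 3' ends over 1 and up to 2 kilobases long they were in 43.0% of genes called higher by at least 1. The share there was 30.8% of those called lower and 32.5% of all. In the shorter length classes the genes called higher also had the largest share. Among 3' ends over 2 kilobases long they did not, with 51.6% of those called higher, 53.3% of those called lower and 54% of all. Genes called by at least a log2 of 1 had a median of 5 exons where higher and 4 where lower, against 10 for all measured genes. These shares describe letters and carry no test.

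Immediate early genes and AP-1 factors rose as a group. AP-1 is a dimer of JUN, FOS, MAF or ATF proteins, made within minutes of stimulation. Of 25 measured members 22 rose and none fell, against 9.12% of all genes, with a median difference of 2.08, and between 19 and 22 rose with each library left out in turn. The JUN genes Jun and Junb were 15.53 and 15.31 against 12.33 and 12.35 (3.08 ± 0.37), and 16.70 and 16.69 against 14.43 and 14.85 (2.06 ± 0.12). Fosl2 was 11.61 and 11.53 against 8.74 and 8.66 (2.87 ± 0.14). Atf3, also a stress factor, was 8.17 and 9.36 against 4.52 and 5.03 (3.99 ± 0.65). Fos itself was 14.49 and 14.50 against 12.59 and 12.89 (1.75 ± 0.28). The kinase genes Pim1 and Pim3 rose by 2.22 ± 0.12 and 2.08 ± 0.10, the nuclear factor gene Csrnp1 by 2.66 ± 0.11, the growth arrest gene Gadd45b by 2.86 ± 0.18, and Ppp1r15a, which reverses the phosphorylation of the initiation factor eIF2 alpha, by 3.29 ± 0.16. The call of Atf3 ended without naive KO replicate 1 (3.73, adjusted p = 0.0719) or naive KO replicate 2 (4.25, adjusted p = 0.0537), and that of Fos without naive KO replicate 1 (1.60, adjusted p = 0.0615) or TFH KO replicate 2 (1.75, adjusted p = 0.0641). Without replicate 2 of both TFH groups the call of Jun ended as well (3.19, adjusted p = 0.119).

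Genes induced through the antigen receptor rose in part: of 25 measured, 11 rose and 2 fell. The orphan nuclear receptor gene Nr4a1, a reporter of receptor signalling, was 14.53 and 14.38 against 11.83 and 11.77 (2.66 ± 0.10). Nr4a3 rose by 1.42 ± 0.20, and the early activation marker gene Cd69 was 14.16 and 14.07 against 11.71 and 11.64 (2.44 ± 0.10). The regulators of G protein signalling Rgs2 and Rgs1 rose by 3.02 ± 0.10 and 1.86 ± 0.19, and Spry1, an inhibitor of the MAP kinase pathway, by 1.81 ± 0.18. Il2ra, the high-affinity chain of the IL-2 receptor, was 11.60 and 11.57 against 12.27 and 12.15 and fell by 0.63 ± 0.10, and Cd5, a damper of receptor signalling, fell by 0.54 ± 0.12. Bhlhe40, a repressor of Il10 and clock genes, was 14.31 and 14.76 against 10.28 and 11.78 (3.51 ± 0.61). Its call ended without TFH KO replicate 1 (3.73, adjusted p = 0.0829), without TFH KO replicate 2 (3.28, adjusted p = 0.134) and with the compared groups alone (adjusted p = 0.121), and that of Cd5 without naive KO replicate 2 (-0.46, adjusted p = 0.0588) or TFH KO replicate 2 (-0.46, adjusted p = 0.0732). Without TFH KO replicate 2 the list had 7 risen members, and its fallen members numbered 1 without either replicate 2.

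The largest rises among NF-kB genes were those of its feedback inhibitors. Of 28 NF-kB genes 9 rose and 1 fell, with a median difference of 0.20. Nfkbia, which encodes the inhibitor IkB alpha, was 16.23 and 16.44 against 13.38 and 13.68, a 6.99-fold rise (2.80 ± 0.13). Nfkbiz, a nuclear IkB that adjusts target choice, was 14.27 and 14.57 against 11.36 and 11.34 (3.07 ± 0.15). Nfkbid, of the same kind, rose by 1.10 ± 0.15. Among subunits Rel, which encodes c-Rel, was 11.42 and 11.92 against 10.35 and 9.87 (1.56 ± 0.29), while Rela, Relb, Nfkb1 and Nfkb2, none of them called, differed by 0.22, 0.30, 0.18 and 0.39; these 4 were picked after their values were seen. The call of Rel ended without naive KO replicate 2 (1.32, adjusted p = 0.0734) or TFH KO replicate 2 (1.31, adjusted p = 0.0557). The list had 5 risen members without naive KO replicate 1 and 4 without TFH KO replicate 2, and its fallen member was not called once any of the 4 libraries was left out.

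Phosphatases that switch off MAP kinases split by member. Of 16 dual-specificity phosphatase genes 7 rose and 2 fell. Dusp1 was 15.05 and 14.91 against 11.96 and 12.06 (2.97 ± 0.11). Dusp10 was 14.84 and 14.46 against 11.60 and 11.44 (3.13 ± 0.13). Dusp4 was 11.55 and 11.70 against 8.67 and 8.52 (3.03 ± 0.15) and Dusp5 was 12.63 and 12.14 against 9.52 and 9.28 (2.98 ± 0.16). These 4 rises lay between 2.97 and 3.13. Dusp6, which acts on ERK, rose by 1.22 ± 0.11, and Dusp7, which also acts on ERK, fell by 1.15 ± 0.14, from 11.64 and 11.64 to 10.69 and 10.30.

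Kruppel-like factors, zinc finger proteins that include regulators of quiescence and migration, rose in 7 of 12 cases and fell in none. Beside Klf4, Klf11 was 11.91 and 11.71 against 8.63 and 8.06 (3.47 ± 0.20). Klf6 was 15.33 and 15.20 against 12.91 and 12.70 (2.46 ± 0.11) and Klf9 rose by 1.98 ± 0.22. Klf2, which maintains S1pr1 in naive T cells, was 14.52 and 14.49 against 13.92 and 14.05 (0.52 ± 0.11). Its call ended without naive KO replicate 1 (0.46, adjusted p = 0.0525) or when both TFH groups lacked their replicate 2 (0.53, adjusted p = 0.061). Factors that shorten messenger RNA life or slow the cell cycle also rose in part, 10 of 22 against 3 that fell: Zc3h12a, the RNA-cleaving protein Regnase-1, was 13.42 and 13.68 against 10.94 and 11.21 (2.48 ± 0.19). Zfp36, which binds AU-rich elements, rose by 1.38 ± 0.12. The antiproliferative genes Tob1, Tob2 and Btg1 rose by 1.79 ± 0.15, 1.70 ± 0.11 and 1.08 ± 0.10. Fallen members of this list numbered 0, 2, 1 and 1 without naive KO replicate 1, naive KO replicate 2, TFH KO replicate 1 and TFH KO replicate 2.

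**Figure D3:**
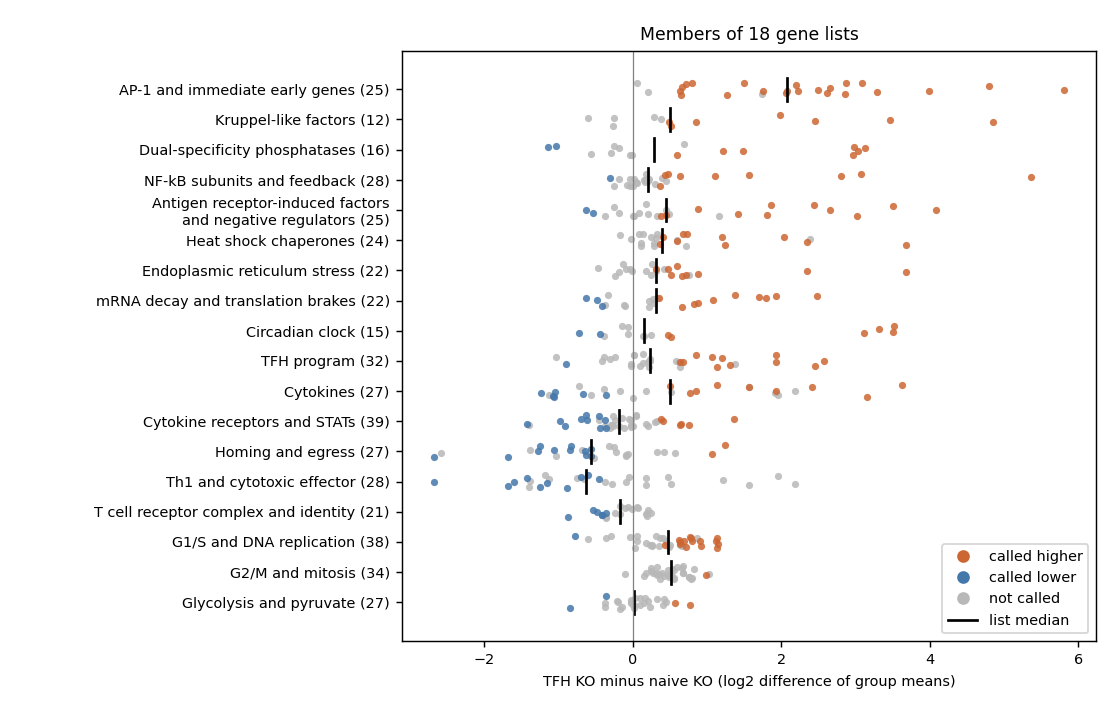
Log2 difference (TFH-labelled KO minus naive-labelled KO) of every measured member of 18 gene lists, coloured by the call, with the list median as a black bar; numbers in brackets count the members. The AP-1 and immediate early list lies farthest to the right, with a median of 2.08, and the Th1 and homing lists have medians of -0.63 and -0.57.

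The TFH program moved only in part. Of 32 members 11 rose and 1 fell, with a median difference of 0.23, which was 0.11 or 0.60 without naive KO replicate 1 or 2, and 0.36 when TFH KO replicate 1 was left out. The helper cytokine gene Il21 was 9.58 and 9.95 against 7.47 and 8.19, a 3.82-fold rise (1.93 ± 0.24, adjusted p = 0.00029). Il4, the other B cell helper cytokine, was 8.44 and 8.18 against 7.09 and 7.28 (1.13 ± 0.26). Ascl2, a factor that starts the TFH program, was 8.26 and 8.56 against 6.10 and 6.87 (1.93 ± 0.26). Irf4 was 12.24 and 12.80 against 11.20 and 11.43 (1.2 ± 0.18). The surface molecule gene Cd200 was 11.37 and 11.63 against 10.77 and 10.87 (0.68 ± 0.12). Both TFH-labelled libraries lay above both naive-labelled ones for each of these genes. Id3, an inhibitor of E proteins that restrains TFH differentiation, was 10.41 and 10.54 against 11.38 and 11.37 and fell by 0.90 ± 0.10.

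Bcl6, the master regulator of the program, was 11.33 and 11.92 against 11.02 and 11.00, and its difference of 0.62 ± 0.19 was not called (adjusted p = 0.0579). It was called without TFH KO replicate 1 (0.91, adjusted p = 0.00352) and in a fit that took the B cell level into account (0.65, adjusted p = 0.00628); B cells of the germinal centre also make Bcl6, and TFH KO replicate 2 held the higher value. Icos, a costimulator of TFH cells, overlapped between the groups at 12.69 and 12.87 against 12.32 and 12.79. Prdm1, the gene of the BCL6 antagonist Blimp-1, overlapped as well, at 9.31 and 10.10 against 9.64 and 10.15. Tox2, a factor of TFH cells, was called at 1.31 ± 0.33 (adjusted p = 0.0409), but not once any of the 4 libraries was left out (adjusted p = 0.0645 to 0.191). The call of Il4 ended without naive KO replicate 1 (1.03, adjusted p = 0.0704) or TFH KO replicate 1 (0.99, adjusted p = 0.0691). The list had 7 risen members without naive KO replicate 1 and 6 without TFH KO replicate 2. It had 2 fallen members without naive KO replicate 1, naive KO replicate 2 or TFH KO replicate 1.

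Other cytokines changed in both directions: 9 of 27 rose and 6 fell. Il10, an inhibitory cytokine, was 10.42 and 11.26 against 6.31 and 8.11 (3.63 ± 0.72). Areg, the growth factor amphiregulin, was 8.45 and 8.61 against 4.52 and 6.23 (3.16 ± 0.48). Lif, of the IL-6 family, was 9.90 and 10.71 against 7.72 and 8.07 (2.41 ± 0.35). Il16, a chemoattractant of CD4 cells, was 13.59 and 13.56 against 14.60 and 14.70 (-1.07 ± 0.10). Ltb, the lymphotoxin chain that organises lymphoid tissue, fell by 0.67 ± 0.13. Naive KO replicate 1 held the lowest Il10 and Areg values. Without replicate 2 of both TFH groups the calls of Areg (3.08, adjusted p = 0.0645) and Ltb (-0.51, adjusted p = 0.052) ended. The call of Il10 ended without TFH KO replicate 1 (4.05, adjusted p = 0.0789), without TFH KO replicate 2 (3.20, adjusted p = 0.155) and with the compared groups alone (adjusted p = 0.142). Ifng, the Th1 cytokine, was 11.47 and 11.25 against 8.98 and 10.63 and was not called (1.56 ± 0.57, adjusted p = 0.143); it was called without naive KO replicate 1 (0.73, adjusted p = 0.0138), without naive KO replicate 2 (2.38, adjusted p = 5.01e-06) and without the robust option (adjusted p = 0.0324). Fallen cytokines numbered 4, 2, 3 and 4 without naive KO replicate 1, naive KO replicate 2, TFH KO replicate 1 and TFH KO replicate 2.

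Of 39 genes of cytokine receptors and STATs 10 fell and 6 rose, where 10.4% of all genes fell and 9.12% rose. Il7r, which conveys survival signals to resting T cells, was 13.58 and 13.27 against 14.55 and 14.26 (-0.98 ± 0.15). Il10rb fell by 0.92 ± 0.12, and the receptors of the Th1 cytokines IL-12 and IL-18 fell: Il12rb2 was 7.51 and 8.01 against 9.0 and 9.38 (-1.43 ± 0.24). Il18r1 was 9.86 and 9.92 against 10.45 and 10.73 (-0.70 ± 0.14). Il4ra, the receptor of IL-4, went the other way, at 15.18 and 15.38 against 13.96 and 13.89, a 2.56-fold rise (1.36 ± 0.11). The count of fallen receptors was 5 without TFH KO replicate 2. Risen receptors numbered 1, 4, 3 and 1 without naive KO replicate 1, naive KO replicate 2, TFH KO replicate 1 and TFH KO replicate 2.

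Regulators of other helper lineages differed by lineage. Tbx21, the Th1 factor T-bet, was 9.71 and 9.84 against 10.55 and 11.32 (-1.16 ± 0.24). Gata3, the Th2 factor, was 12.09 and 12.28 against 11.62 and 11.57 (0.59 ± 0.11). Nfil3, a basic leucine zipper factor, was 12.09 and 12.11 against 8.13 and 9.04 (3.52 ± 0.31). Irf1, a target of interferon, was 15.08 and 15.43 against 13.72 and 14.27 (1.26 ± 0.18). Zbtb7b, the factor that fixes the CD4 lineage, fell by 0.77 ± 0.11, from 13.80 and 13.70 to 13.06 and 12.89. Of 26 such regulators 7 rose and 4 fell, against 9.12% and 10.4% of all genes. The call of Tbx21 ended without TFH KO replicate 1 (-1.10, adjusted p = 0.079) or TFH KO replicate 2 (-1.23, adjusted p = 0.0732), and 2 members fell without either of those libraries. That of Gata3 ended when both TFH groups lacked their replicate 2 (0.49, adjusted p = 0.0622).

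Th1 and cytotoxic genes fell in 10 of 28 cases and rose in none, with a median difference of -0.63. Prf1, the pore-forming protein perforin, was 9.65 and 9.71 against 10.59 and 10.56 (-0.89 ± 0.13). Ly6c1 was 7.22 and 6.82 against 8.52 and 8.73 (-1.60 ± 0.25). The Th1 chemokine receptor gene Cxcr3 was 10.85 and 10.60 against 12.07 and 12.74 (-1.68 ± 0.28). NK receptor genes fell as well: Klrb1c was 9.21 and 9.12 against 10.89 and 10.76 (-1.66 ± 0.12). Klrd1 was 8.64 and 8.73 against 10.11 and 10.24 (-1.49 ± 0.22) and Cd160 was 9.76 and 9.42 against 10.53 and 10.37 (-0.86 ± 0.14). Of 21 markers of CD8 T and NK cells 6 fell and none rose, against 10.4% and 9.12% of all genes. Cd8a, which defines CD8 T cells, overlapped between the groups at 6.19 and 8.69 against 8.14 and 7.41, and the list's median deviation was 0.43 and 0.17 in the naive-labelled and -0.67 and -0.03 in the TFH-labelled libraries. The part of such cells in these falls was not tested. The call of Cxcr3 ended without TFH KO replicate 2 (-1.56, adjusted p = 0.0778). The Th1 list had 15 fallen and 1 risen member without naive KO replicate 1, and 8 and 1 when naive KO replicate 2 was left out. It had 7 and 3 without TFH KO replicate 1, and 7 and 1 when TFH KO replicate 2 was left out. It had 3 risen members without the robust option, and its median was -0.31 without naive KO replicate 2. Without replicate 2 of both TFH groups Cd8a was called (-1.59, adjusted p = 0.0176).

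Homing and egress receptors fell in 11 of 27 cases and rose in 2. S1pr4, a receptor for sphingosine 1-phosphate, was 12.45 and 12.30 against 13.40 and 13.48 (-1.06 ± 0.12). Ccr4 was 8.70 and 8.51 against 10.05 and 9.72 (-1.28 ± 0.17). Ccr2 was 9.57 and 9.68 against 10.68 and 11.07 (-1.25 ± 0.22). Selplg, the selectin ligand PSGL-1, fell by 0.85 ± 0.13. The 2 that rose were Gpr183, the oxysterol receptor EBI2 that positions cells at the follicle border, at 13.55 and 13.52 against 12.29 and 12.29 (1.24 ± 0.09), and Cxcr4, which guides cells within germinal centres, at 12.22 and 12.19 against 11.26 and 11.00 (1.07 ± 0.12). S1pr1, the main egress receptor, was 14.44 and 14.31 against 14.79 and 14.61, and Ccr7, which holds naive cells in the T cell zone, was 14.79 and 14.63 against 14.46 and 14.31. Neither was called (adjusted p = 0.0832 and 0.0663), and both were once the B cell level entered the model (-0.33 and 0.32, adjusted p = 0.0489 and 0.0473). Without TFH KO replicate 2 the list had 7 fallen and 3 risen members. The call of Ccr2 ended when both TFH groups lacked their replicate 2 (-1.3, adjusted p = 0.0792).

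**Figure D4:**
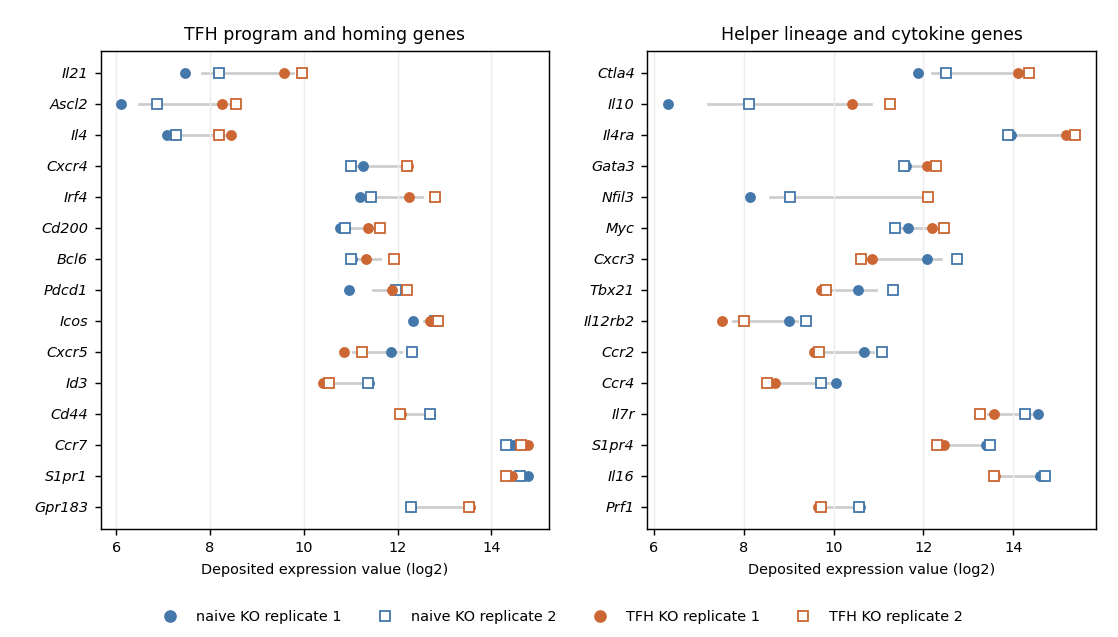
Deposited log2 value of 30 helper, homing and cytokine genes in each of the 4 KO libraries, with the grey bar joining the group means. Il21, Ascl2 and Ctla4 separate the groups upward, Cxcr5 lies lower in both TFH-labelled libraries, and Icos and Pdcd1 overlap.

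Quiescence genes moved both ways, with 6 of 29 higher and 7 lower, against 9.12% and 10.4% of all genes, and a median difference of 0. Slfn2, a factor that maintains resting T cells, was 13.38 and 13.29 against 14.48 and 14.68 (-1.25 ± 0.11). The kinase gene Txk, of naive T cells, was 11.80 and 11.77 against 12.58 and 12.71 (-0.86 ± 0.11). The risen members included Tob1, Btg1 and Klf2, given above. Among costimulatory and inhibitory receptors 5 of 26 rose and 5 fell, where 9.12% of all genes rose and 10.4% fell. Ctla4, which removes the ligands of CD28, was 14.10 and 14.34 against 11.88 and 12.50 (2.03 ± 0.23). Cd86, such a ligand, was 8.23 and 8.57 against 9.82 and 10.15 (-1.59 ± 0.30). Lag3, an inhibitory receptor, was 12.40 and 13.07 against 10.16 and 11.30 and was not called (2.0 ± 0.68, adjusted p = 0.131), except without the robust option (adjusted p = 0.0215). The call of Cd86 ended without naive KO replicate 2 (-1.42, adjusted p = 0.0553) or TFH KO replicate 1 (-1.42, adjusted p = 0.06). Fallen receptors numbered 1 without naive KO replicate 2 and 2 without TFH KO replicate 2, and risen ones 2 without naive KO replicate 1 or TFH KO replicate 2. Of 21 genes of the T cell receptor complex and T cell identity 6 fell and none rose; Thy1, a T cell surface protein, was 14.81 and 14.32 against 15.39 and 15.48 (-0.87 ± 0.14), and the fallen members numbered 4, 2, 5 and 1 without naive KO replicate 1, naive KO replicate 2, TFH KO replicate 1 and TFH KO replicate 2.

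Replication genes rose, and mitosis genes differed between the TFH-labelled libraries. Of 38 G1/S genes 15 rose and 1 fell, with a median of 0.47: the replication clamp gene Pcna was 14.33 and 14.32 against 13.05 and 13.31 (1.15 ± 0.11). The licensing factor gene Cdt1 was 11.99 and 12.36 against 10.96 and 11.13 (1.13 ± 0.13), and E2f1, which switches on S phase genes, was 9.19 and 9.81 against 8.36 and 8.41 (1.12 ± 0.21). Of 34 mitosis genes 33 had a positive difference, but only the kinase gene Aurka rose (0.99 ± 0.20). The median difference of the mitosis list was 0.51. It was 1.06 without TFH KO replicate 1 and 0.06 without TFH KO replicate 2. Mki67, the Ki-67 gene of cycling cells, was 11.52 in TFH KO replicate 1, near the naive-labelled values of 11.39 and 11.51, and 12.99 in TFH KO replicate 2. It was called only once the B cell level entered the model (0.90, adjusted p = 0.0147). The median deviation of the mitosis list was -0.22 and 0.76 in the TFH-labelled and -0.38 and -0.18 in the naive-labelled libraries. TFH KO replicate 2 is also the library with high B cell genes, whose part in the mitosis genes was not tested. Without TFH KO replicate 1, 22 G1/S and 27 mitosis genes rose, and without TFH KO replicate 2, 6 and 1. With naive KO replicate 1 left out 8 G1/S genes rose, with naive KO replicate 2 left out 2 mitosis genes rose, and once the B cell level entered the model 23 and 20 did. The G1/S median was 0.77 without TFH KO replicate 1 and 0.21 without TFH KO replicate 2. Without replicate 2 of both TFH groups the calls of E2f1 (0.81, adjusted p = 0.0517) and Aurka (0.69, adjusted p = 0.0566) ended.

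Genes of arrest and death moved in both directions. The polo-like kinase gene Plk2, a p53 target, was 10.95 and 11.14 against 7.33 and 7.25 (3.76 ± 0.19). Plk3 rose by 1.94 ± 0.19. Trp53 itself was 11.77 and 11.86 against 12.39 and 12.31 (-0.53 ± 0.10). The death activator genes Pmaip1 and Bbc3, which encode NOXA and PUMA, were 10.40 and 10.83 against 7.84 and 8.49 (2.45 ± 0.29), and 10.28 and 10.18 against 9.34 and 9.14 (0.99 ± 0.17). Bmf, another death activator, was 7.22 and 7.66 against 9.05 and 9.05 (-1.61 ± 0.19). The survival genes Mcl1 and Bcl2 rose by 0.72 ± 0.10 and 0.96 ± 0.19. Of 17 BCL2 family genes 4 rose and 1 fell, and of 22 arrest and p53 target genes 5 rose and 2 fell, where 9.12% of all genes rose and 10.4% fell. The fallen members were 2 in the BCL2 family without naive KO replicate 2. In the p53 list they were 3 without TFH KO replicate 1 and 1 on leaving out any other library of the comparison.

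Chaperones rose and none fell, 10 of 24 in the heat shock list and 9 of 22 in the endoplasmic reticulum list. Hspa5, the reticulum chaperone BiP, was 16.42 and 16.57 against 14.10 and 14.21 (2.34 ± 0.13), and its partner gene Dnajb9 was 13.40 and 13.18 against 9.66 and 9.56 (3.68 ± 0.13); both genes are in both lists. In the cytosol Hsp90aa1 rose by 1.24 ± 0.11, and Dnajb4 was 11.13 and 11.11 against 9.05 and 9.11 (2.04 ± 0.13). The inducible HSP70 gene Hspa1a was 4.64 and 5.71 against 2.64 and 2.93, values near the bottom of the scale. Its difference of 2.39 ± 1.42 was not called, except with the compared groups alone (adjusted p = 0.0374). The naive-labelled WT libraries, which enter the model of the spread, were 8.0 and 11.97. Xbp1, a factor of the unfolded protein response that plasma cells also make in quantity, rose by 0.88 ± 0.21, with 12.76 in TFH KO replicate 2 and 12.19 in TFH KO replicate 1 against 11.54 and 11.65. Its call ended without naive KO replicate 1 (0.82, adjusted p = 0.138), naive KO replicate 2 (0.94, adjusted p = 0.111) or TFH KO replicate 2 (0.59, adjusted p = 0.0613). The heat shock list had 6 risen members without naive KO replicate 2 or TFH KO replicate 2, and the reticulum list 5 and 4.

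Of the metabolic lists, those of sterol synthesis, glycolysis and PI3K signalling had shares of called genes near those of all genes (9.12% higher, 10.4% lower), so their counts are no result about the lists. The amino acid transporter genes Slc38a2, Slc3a2 and Slc1a4 rose by 1.25 ± 0.11, 1.10 ± 0.12 and 1.55 ± 0.21, and Atf4, which drives amino acid uptake and synthesis under stress, was 14.74 and 14.72 against 13.22 and 13.44 (1.4 ± 0.12). Ddit4, an inhibitor of mTORC1, was 10.74 and 11.20 against 12.28 and 12.36 (-1.35 ± 0.15). Of the 30 members of that list 8 rose and 2 fell. In sterol synthesis 3 of 27 rose and 4 fell: Insig1 was 12.14 and 12.22 against 11.00 and 11.23 (1.07 ± 0.11) and Insig2, which like it retains the SREBP complex in the reticulum, was 8.65 and 8.74 against 9.89 and 9.85 (-1.18 ± 0.15). The enzyme gene Hmgcs1 fell by 0.62 ± 0.10. In glycolysis 2 of 27 rose and 2 fell, with Pgam1, the phosphoglycerate mutase, at 0.77 ± 0.13 and Pdk1, the kinase that blocks pyruvate entry into the citrate cycle, at -0.85 ± 0.13. Myc, a transcription factor of growth and metabolism, was 12.18 and 12.46 against 11.65 and 11.37 (0.81 ± 0.14), and of 33 Myc and ribosome biogenesis genes 7 rose and 1 fell, with the nucleolar gene Gnl3 at 1.19 ± 0.12. Of 31 PI3K and mTOR genes 2 rose and 4 fell. Without TFH KO replicate 2, 5 of the amino acid list, 1 of the sterol list, 1 of the glycolysis list and 4 of the Myc list rose. Without naive KO replicate 1, 1 sterol gene, 1 glycolysis gene, 4 Myc genes and 4 PI3K genes rose. Risen glycolysis genes numbered 3 without naive KO replicate 2, and fallen ones 3 without TFH KO replicate 1 and 1 on leaving out any other library. Fallen PI3K genes numbered 2 without naive KO replicate 1 or TFH KO replicate 2, and risen ones 1 without naive KO replicate 2 or TFH KO replicate 1.

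Of 43 interferon-stimulated genes 8 rose and 3 fell, against 9.12% and 10.4% of all genes: the antiviral genes Mx2 and Oas2 were 8.65 and 8.99 against 7.62 and 7.26 (1.39 ± 0.21), and 12.10 and 12.11 against 11.52 and 11.13 (0.78 ± 0.12). The GTPase gene Irgm2 was 11.01 and 11.17 against 12.13 and 12.48 (-1.21 ± 0.14). The risen members numbered 2 without naive KO replicate 1 and 3 without TFH KO replicate 2, and the fallen ones 1 without either replicate 2 and 5 without TFH KO replicate 1. Of 15 clock genes 6 rose and 2 fell, with Per1, a core clock gene that stimuli also induce, at 14.21 and 14.78 against 11.46 and 11.30 (3.11 ± 0.25) and Ciart, a clock repressor, at 10.28 and 10.48 against 7.11 and 7.01 (3.32 ± 0.29). The clock list had 3 risen members without TFH KO replicate 2 and 0 fallen ones unless TFH KO replicate 1 was the library left out, and the time of day of collection is not in the labels. Among 19 genes of TGF-beta signalling 5 rose and 3 fell, and the inhibitors Bambi, Tgif1 and Skil rose by 1.62 ± 0.17, 1.55 ± 0.17 and 0.57 ± 0.11. Fallen members numbered 1 without naive KO replicate 1 or TFH KO replicate 2.

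The KO difference was then set against the WT difference in the same model, to ask where the C5aR1-/- label went with another change between naive-labelled and TFH-labelled cells. Only 2 of 14042 genes (0.0142%) were called, and 614 had an unadjusted p below 0.05. Slc1a5, which encodes the glutamine transporter ASCT2, was 13.15 and 13.28 in TFH-labelled against 11.56 and 11.63 in naive-labelled KO libraries, and 13.86 and 13.81 against 13.90 and 14.04 in WT. Its difference was 1.62 ± 0.10 in KO and -0.13 ± 0.10 in WT, and these departed from each other by 1.75 ± 0.15 (adjusted p = 0.000954). Fbxo17, an F-box gene, was 9.96 and 10.00 against 10.85 and 10.99 in KO, and 9.58 and 9.61 against 8.72 and 8.93 in WT, so that its difference was -0.94 ± 0.13 in KO and 0.77 ± 0.13 in WT (-1.71 ± 0.19 between them, adjusted p = 0.00959). In both genes the naive-labelled KO and WT libraries lay farther apart than the TFH-labelled KO and WT libraries. Both calls ended without the trend in the variance (adjusted p = 0.109 for each), and that of Fbxo17 without TFH KO replicate 1 (adjusted p = 0.0611). The number called was 7 without naive KO replicate 2.

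Both genes lie on chromosome 7, as C5ar1 does. Of the 12 genes with the smallest p in this test, a set chosen by that p and given with no test, 8 (66.7%) are on chromosome 7, against 1093 of 14006 measured genes with a RefSeq position (7.80%). By distance from C5ar1 they are Sae1 (0.06 megabases), Slc1a5 (0.52), Ccdc61 (2.63), Irgc1 (8.17), Zfp974 (11.65), Fbxo27 (12.43), Fbxo17 (12.46) and Zfp30 (13.52). In each of the 8 the naive-labelled KO and WT libraries differed more than the TFH-labelled KO and WT libraries did. The fall of Irgc1 by 4.08 in KO started from 10.49 and 10.18 in naive-labelled KO libraries, where naive-labelled WT libraries had 5.26 and 6.04, and its difference in WT was -1.21 ± 0.29. The departure of Irgc1 (-2.86 ± 0.41) was not called (adjusted p = 0.0688). Chromosome position and the deleted gene cannot be told apart here, since the labels give no backcross history of the KO mice.

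**Figure D5:**
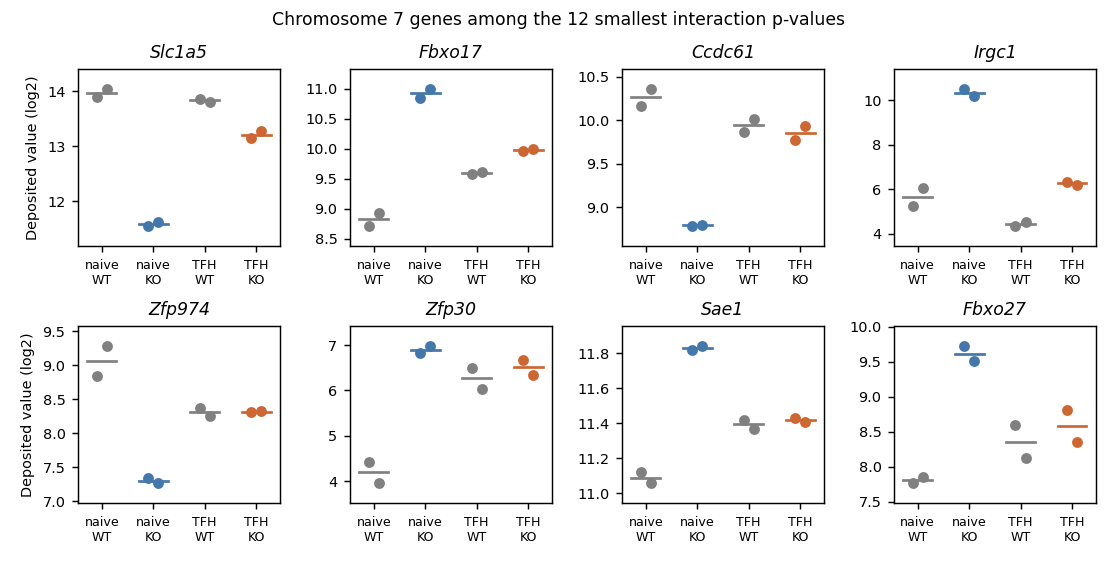
Deposited log2 value of the 8 chromosome 7 genes among the 12 smallest p-values for the departure of the KO from the WT difference, in each of the 8 libraries, with bars at the group means and a y axis of its own for each gene that does not start at 0. In every panel the naive-labelled KO and WT means lie farther apart than the TFH-labelled KO and WT means.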

How the data were processed

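RNA was sequenced from 1 end to 51 bp, per the labels' protocols. BWA and mm10 are named in the submitters' processing notes, without versions; for counting, annotation and normalization the method was not given in the sources used here. Deposited by the authors were log2 values for 14042 genes per library. Once sorted, they depart by at most 0.03 from the median library (the lowest percentile aside), as quantile normalization would leave them. Depth is therefore unknown, without counting intervals. All 8 libraries entered 1 linear model in limma 3.58.1 (R 4.3.3) with a mean per group, a variance trend and the robust option, leaving 4 residual degrees of freedom. P-values were adjusted by Benjamini-Hochberg over all genes. With 2 libraries a side, the smallest two-sided p an exact permutation test allows is 0.33. Replicates were numbered in the order of deposit, which pairs no samples.

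Genes named were the 12 largest called rises and falls at a mean of at least log2 8 in the higher group, without overlap between libraries, leaving out predicted or numbered genes and receptor segments; up to 6 called members of each of 36 lists by p, or the 2 smallest p; a fixed set of 19 genes, of which 16 were measured; and the called interaction genes. Another 32 genes were added after their values were seen: among those given here Jun, Junb, Fos, Nr4a3, Ppp1r15a, Gadd45b, Tox2, Gata3, Tbx21, Cxcr3, Ifng, Lag3, Hspa1a, Xist, Cd79b, H2-Aa, C1qa and Cd8a. The text leaves out part for length, and a few genes that the rule names are not reported here. The lists, members and the trend setting were chosen with earlier results of these data known. Alternatives were no trend, no robust option, a minimum mean of log2 5 and each KO library left out in turn. Others were replicate 2 of both TFH groups left out, the B cell level as a covariate, library quality weights and the compared groups alone. Gene positions and promoters are from RefSeq on GRCm38, transcript ends from GENCODE. Without strand information in the sources, reads of overlapping genes may be shared.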

Additional observations from a re-analysis of the deposited data

Results flagged for a closer look

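In the test of the difference between the KO and the WT contrast, the effects of 2 genes departed from each other. Slc1a5 changed by 1.75 more between naive-labelled and TFH-labelled libraries in KO than in WT (limma, adjusted p = 0.000954), with 1.62 in KO and -0.13 in WT. Fbxo17 departed by -1.71 (adjusted p = 0.00959), with -0.94 in KO and 0.77 in WT, so that both KO libraries of the TFH label lay below, and both WT libraries above, the naive-labelled libraries of their genotype.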

How the results depend on the processing

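With 2 libraries a group and no known depth, differences near the SE cannot be resolved, and values at the bottom of the scale rest on a floor. The 2744 genes called became 1399 to 2219 with each library of the comparison left out in turn, 1225 without replicate 2 of both TFH groups, and 704 when a difference of at least a log2 of 1 was also required. The count was 1994 without the trend, 2652 without the robust option, 2731 with the minimum mean, 2479 with quality weights, 2251 with the compared groups alone and 3656 once the B cell level was a covariate; the left-out fits have fewer samples, and the cause was otherwise not tested. The interaction count of 2 became 0 without the trend in limma, where no other tool was run, against 614 genes at an unadjusted p below 0.05 in the model with the trend, and 1 to 7 with each library left out; it stayed at 2 without the robust option, with the minimum mean, with the covariate and with the weights. Of 198 called genes named by the rule or added, 24 to 46 lost their call with a library left out (46 for TFH KO replicate 2), 58 without replicate 2 of both TFH groups, 20 without the trend, 11 with the compared groups alone, 3 with the weights, 2 without the robust option and 0 with the minimum mean or the covariate. Of these genes, 0 changed direction in those fits. No paired analysis was possible because the replicate numbers follow the order of deposit.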

Other observations

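Zfp genes, a family chosen after its values were seen, are described by counts with no test. Of 318 measured genes with the symbol stem Zfp, most of which encode DNA-binding proteins with repeated zinc fingers, 81 fell (25.5%) and 27 rose (8.49%), against 10.4% and 9.12% of all genes, with a median difference of -0.21. The stems Mettl, Cdc, Ifi and Klhl had fallen shares as high (28.6%, 26.7%, 26.7% and 25.9%). Of 38 Zbtb genes, which join a zinc finger to a BTB domain, 12 fell (31.6%) and 6 rose, with a median of -0.29. Of 21 genes with the stem Zc, several of which encode RNA-binding zinc fingers, 6 rose (28.6%) and none fell. Of 22 Taf genes, subunits of the general factor TFIID, 5 rose (22.7%) and none fell. Such risen shares were not particular to these stems, since Dusp, Mir, Olfr and Nr had 43.8%, 33.3%, 26.7% and 25%.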
